A study of Mus musculus with 10 samples.

Results

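The cell cycle was examined through 49 mouse genes of the G1/S transition, DNA replication and mitosis, chosen by gene symbol, with earlier results of these data known, among 53379 genes in the count table. All 49 were found in the table and all 49 passed the filter on low counts. They were measured by RNA sequencing in MC38 cells, a colon carcinoma line from the mouse that was grown as tumors in C57BL/6J hosts. The cells carried the fluorescent protein dTomato and were sorted as dTomato-positive and CD45-negative from tumors 21 days after implantation, from 5 mice on a high-fat diet and 5 mice on a control diet. There was 1 library per mouse, and the sources used here do not give what the diets contained, how long they were fed, or the age and sex of the mice. The MC38 line, the dTomato label and the C57BL/6J background were shared by both groups.

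Cells enter the cycle when D-type cyclins with CDK4 or CDK6, and then cyclin E with CDK2, phosphorylate the Rb protein and release E2F transcription factors, which switch on genes of replication. The MCM helicase then unwinds DNA, PCNA clamps the polymerases to it, and ribonucleotide reductase, thymidylate synthase and thymidine kinase supply the building blocks. Cyclin B with CDK1 drives entry into mitosis, and the anaphase-promoting complex ends it. Transcripts of many replication genes peak in S phase and those of many mitotic genes in G2 and M, so that their levels in a bulk RNA sample follow the share of dividing cells as well as the level in each cell. In bulk RNA, fewer cells of a type and less RNA per cell cannot be told apart.

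Total counts ran from 16513388 to 17154050 in high-fat libraries and from 17050797 to 18653705 in control libraries, and their means differed in an exact two-sided permutation test (p = 0.0317, n = 5 per diet; the smallest p this design allows is 0.00794). Levels are in CPM, counts scaled to a common effective library size, on which the limit allowed by a count of 0, that is 3 counts, lay between 0.158 and 0.183. Of 7 epithelial markers only Cdh1 passed the filter on low counts, at 1.49 CPM on average in high-fat and 1.63 CPM in control libraries, while Krt8, Krt18, Krt19, Epcam, Vil1 and Cdx2 stayed below it. The 7 fibroblast-type markers, led by Col3a1, summed to between 6352 and 12544 CPM in high-fat and between 7026 and 12006 CPM in control libraries. Whether these abundant transcripts come from the MC38 cells or from stromal cells in the sort cannot be told apart here, so all values below are levels in the sorted cells. The 12 macrophage markers summed to between 29.1 and 69.1 CPM in high-fat and between 61.0 and 428 CPM in control libraries, with the highest sums in control mice 3 and 4. The 8 pan-leukocyte markers summed to between 21.6 and 65.4 CPM in high-fat and between 29.9 and 194 CPM in control libraries, and the 11 T and NK cell markers to between 2.20 and 13.5 CPM in high-fat and between 0.911 and 21.1 CPM in control libraries. The 7 endothelial markers summed to between 24.1 and 39.6 and between 17.8 and 25.7 CPM, and the 5 adipocyte markers to at most 0.183 and 0.159 CPM, high-fat and control in that order.

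E2F factors, the CCAAT-binding factor NF-Y, and complexes that bind the cell-cycle homology region are known to control many promoters of this program. Promoter sequences are shown for a few replication, mitosis and inhibitor genes chosen by name. The inhibitor genes shown, Cdkn2b and Cdkn2a, also had the most positive changes with diet among the 49 genes. RefSeq promoters on GRCm38.p6, 250 bases before to 50 bases after the start, matched 38 of the 49 genes (42 promoters), and Aurkb, Ccna2, Ccnd1, Ccnd2, Ccne2, Cdc25c, Foxm1, Kif20a, Mcm4, Rb1 and Tpx2 had no entry. Each stretch below runs 5′ to 3′ in the direction of transcription and begins 120 bases before the RefSeq start. It ends at the RefSeq start, or before the outermost exon annotated for the gene where that lies farther upstream. Capitals mark matches, on either strand, to an E2F site (TTTCCCGC, TTTGGCGC, TTTCGCGC or TTTGCCGC), a CCAAT box (CCAAT) or a cell-cycle homology region, called CHR (TTTGAA or TTTAAA). Mcm6 and Mcm5 encode helicase subunits, Cdk1, Top2a and Cdc20 act at mitosis, and Cdkn2b and Cdkn2a encode inhibitors of CDK4 and CDK6. The inhibitor encoded by Cdkn2a is p16, and the same gene also encodes the ARF protein. The Mcm6 stretch is chr1:128359706-128359825 (minus strand), Mcm5 chr8:75109389-75109508 (plus strand), Cdk1 chr10:69352939-69353032 (minus strand), Top2a chr11:99024190-99024309 (minus strand), Cdc20 chr4:118437353-118437463 (minus strand), Cdkn2b chr4:89311040-89311152 (minus strand) and Cdkn2a, at the more upstream of its RefSeq starts, chr4:89294654-89294739 (minus strand).
Mcm6: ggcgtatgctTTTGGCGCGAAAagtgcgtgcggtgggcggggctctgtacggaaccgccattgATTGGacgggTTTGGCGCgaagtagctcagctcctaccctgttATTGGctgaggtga
Mcm5: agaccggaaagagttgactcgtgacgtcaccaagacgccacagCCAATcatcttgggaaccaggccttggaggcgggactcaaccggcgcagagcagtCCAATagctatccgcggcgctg
Cdk1: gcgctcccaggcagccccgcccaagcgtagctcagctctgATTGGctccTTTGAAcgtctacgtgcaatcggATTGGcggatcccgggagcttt
Top2a: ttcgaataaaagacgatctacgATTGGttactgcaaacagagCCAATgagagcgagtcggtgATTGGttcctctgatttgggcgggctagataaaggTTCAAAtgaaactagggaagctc
Cdc20: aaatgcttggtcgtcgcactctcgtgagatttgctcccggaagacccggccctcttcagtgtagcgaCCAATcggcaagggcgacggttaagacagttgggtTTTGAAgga
Cdkn2b: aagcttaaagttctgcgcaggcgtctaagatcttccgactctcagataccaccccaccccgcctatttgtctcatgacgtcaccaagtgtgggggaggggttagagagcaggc
Cdkn2a: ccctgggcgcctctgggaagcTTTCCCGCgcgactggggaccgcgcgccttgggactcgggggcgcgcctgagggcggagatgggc

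In these stretches Mcm6 held 3 E2F matches, a pair of which overlap each other, and 2 CCAAT boxes. Mcm5 held 0 E2F matches and 2 CCAAT boxes in its stretch. Its E2F matches began 153 and 149 bases before the start, upstream of the stretch. Cdk1, Top2a and Cdc20 each held 1 CHR match with 2, 3 and 1 CCAAT boxes, in that order. Cdkn2b held no match in its stretch, and Cdkn2a held 1 E2F match. The Cdkn2a stretch lies directly upstream of the outermost annotated exon of the whole gene, which ends at chr4:89294653. Its match was not assigned to the p16 or the ARF transcript, and is not shown to lie in the p16 promoter. Over the whole 300-base windows, E2F matches stood in 4 of 11 promoters of replication genes, in 4 of 14 of the G1 and G1/S genes and in 1 of 17 of the mitotic genes. All 32851 promoters in the table held one in 2.26%. CHR matches stood in 15 of 17 mitotic promoters, 4 of 11 replication promoters and 4 of 14 G1 and G1/S promoters, against 27.6% of all promoters. CCAAT boxes stood in 15 of 17 mitotic, 9 of 11 replication and 7 of 14 G1 and G1/S promoters, against 37.4% of all. The CHR matches thus lay mostly in mitotic promoters and the E2F matches mostly outside them. With the shorter set of CHR spellings, TTTGAA alone, 12 of 17 mitotic promoters still held a match, against 1 of 11 replication promoters, 2 of 14 G1 and G1/S promoters and 17.9% of all. Motifs of different kinds overlapped in 1 member promoter, that of Mcm7. A match describes the letters of the window and is not evidence that a factor binds there.

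The comparison of diets asks whether cells sorted from tumors of high-fat-fed mice differ in their transcripts of the cell cycle. No member passed the test over all genes: edgeR called 0 of 49 at an adjusted p under 0.05, DESeq2 0 and limma-voom 0. Over the whole table edgeR called 9 of 14337 genes, or 0.0628%, while DESeq2 called 326 genes and limma-voom 5. At an unadjusted p under 0.05 edgeR found 2 members with a positive and 2 with a negative change, against 5.45% of all genes higher, 6.62% lower and 12.1% in either direction. The members at that level were the CDK inhibitors Cdkn2b and Cdkn2a, with positive changes, and the cyclins Ccne2 and Ccnd2, with negative changes. These counts moved with the processing, to 0 positive and 1 negative with library size as a covariate, 0 positive and 3 negative without high-fat mouse 3, and 1 positive and 4 negative without high-fat mouse 5. The 5 high-fat and 5 control values overlapped for every member, whereas the diets did not overlap for 2.18% of all genes. The log2 change, high-fat minus control, was positive for 22 members and negative for 27. Its median was -0.01 over the members, against 0.01 over all genes tested, and the median size of the change was 0.06 on the log2 scale over the members and 0.10 over all genes.

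**Figure D1:**
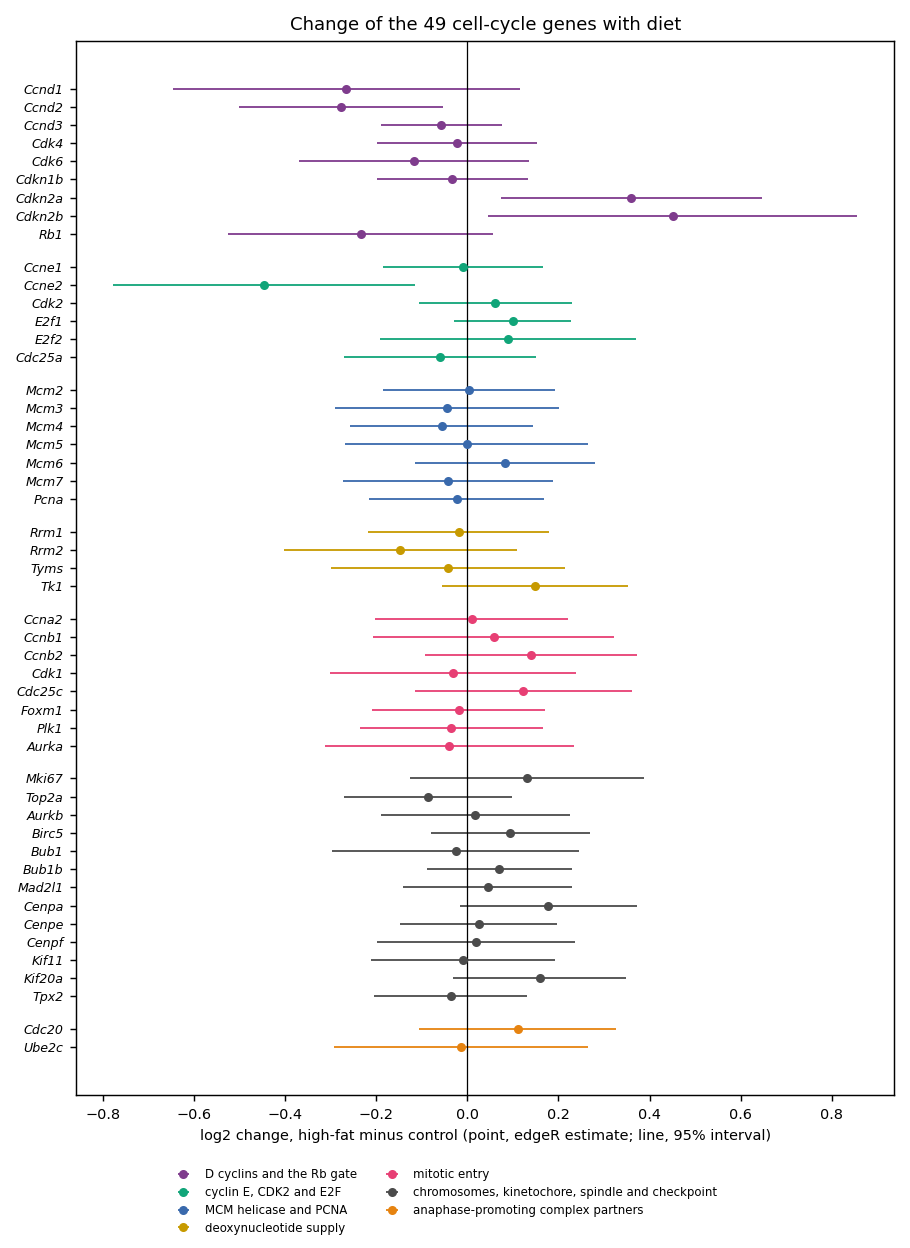
Log2 change, high-fat minus control, of the 49 cell-cycle genes (points, edgeR estimates; lines, 95% intervals; colors, role; n = 5 mice per diet). The intervals of Cdkn2b, Cdkn2a, Ccne2 and Ccnd2 lie to 1 side of 0 before adjustment, and those of the other 45 genes cross 0.

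Among the D-type cyclins, which open G1 in answer to growth signals, Ccnd1 was by far the most abundant per length of exon, at 131 ± 34.8 CPM per kilobase in high-fat and 157 ± 31.8 in control libraries (SD, n = 5). Ccnd1 had 562, 507, 567, 538 and 906 CPM in high-fat mice 1 to 5, and 906, 890.4, 571, 685 and 649 CPM in control mice 1 to 5. High-fat mouse 5 and control mice 1 and 2 were high, and the diets overlapped over most of their range. The log2 change of Ccnd1 was -0.27 (SE 0.18, adjusted p = 0.606 with edgeR), and -0.44 (adjusted p = 0.194) without high-fat mouse 5. Exons of Ccnd1 overlap those of LTO1 on the opposite strand, whose reads cannot be told apart without the strand setting.

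Ccnd2 had 163, 219, 179, 213 and 245 CPM in high-fat mice 1 to 5, against 264, 260.5, 236, 224 and 250.3 CPM in control mice 1 to 5. High-fat mice 1 and 3 were lowest, and 4 of the 5 high-fat values lay below the lowest control value. The log2 change of Ccnd2 was -0.28 (SE 0.10, unadjusted p = 0.0193, adjusted p = 0.303 with edgeR). Ccnd3 averaged 83.0 ± 4.00 CPM in high-fat and 86.4 ± 4.05 CPM in control libraries, with a log2 change of -0.06 (SE 0.06). The partner kinases gave a level of 375 ± 34.3 CPM in high-fat and 381 ± 28.7 CPM in control libraries for Cdk4, and 135 ± 15.6 and 147 ± 25.4 CPM, in high-fat and control libraries in that order, for Cdk6. Their log2 changes were -0.02 (SE 0.08) for Cdk4 and -0.12 (SE 0.12) for Cdk6, both smaller than the spread between mice.

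The inhibitors of these kinases included the genes with the most positive changes of the 49. Cdkn2b, which encodes p15, had 34.4, 52.6, 52.0, 48.97 and 58.7 CPM in high-fat mice 1 to 5, against 30.4, 39.1, 47.4, 23.2 and 40.5 CPM in control mice 1 to 5. High-fat mice 2 to 5 all stood above the highest control value, and high-fat mouse 1 within the control range. This was a log2 change of 0.45 (SE 0.19), a ratio of 1.37, with an unadjusted p of 0.0324 and an adjusted p of 0.352 with edgeR.

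Cdkn2a, which encodes p16 and the ARF protein, had few counts, at 6.01, 7.47, 9.46, 8.10 and 8.75 CPM in high-fat mice 1 to 5 and 6.82, 6.31, 5.83, 5.44 and 6.61 CPM in control mice 1 to 5. Again high-fat mouse 1 lay among the control mice and the other high-fat mice lay above them. For Cdkn2a the log2 change was 0.36 (SE 0.13), a ratio of 1.28, with an unadjusted p of 0.0176 and an adjusted p of 0.293 with edgeR. The counts are per gene, so the p16 and ARF transcripts could not be separated. Cdkn2b and Cdkn2a are neighbors on chromosome 4 of GRCm38, at chr4:89306299-89311039 and chr4:89274471-89294653.

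Cdkn1b and Rb1 are further brakes on G1. Cdkn1b, which encodes p27, averaged 96.8 ± 7.09 CPM in high-fat and 99.1 ± 8.29 CPM in control libraries (log2 change -0.03, SE 0.08). Rb1, the retinoblastoma gene, averaged 17.9 ± 3.58 CPM in high-fat and 21.1 ± 2.33 CPM in control libraries, with a log2 change of -0.23 (SE 0.13, adjusted p = 0.540 with edgeR). Over all 9 genes of the D cyclins and the Rb gate, 2 changes were positive and 7 negative, with a median of -0.06 on the log2 scale.

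**Figure D2:**
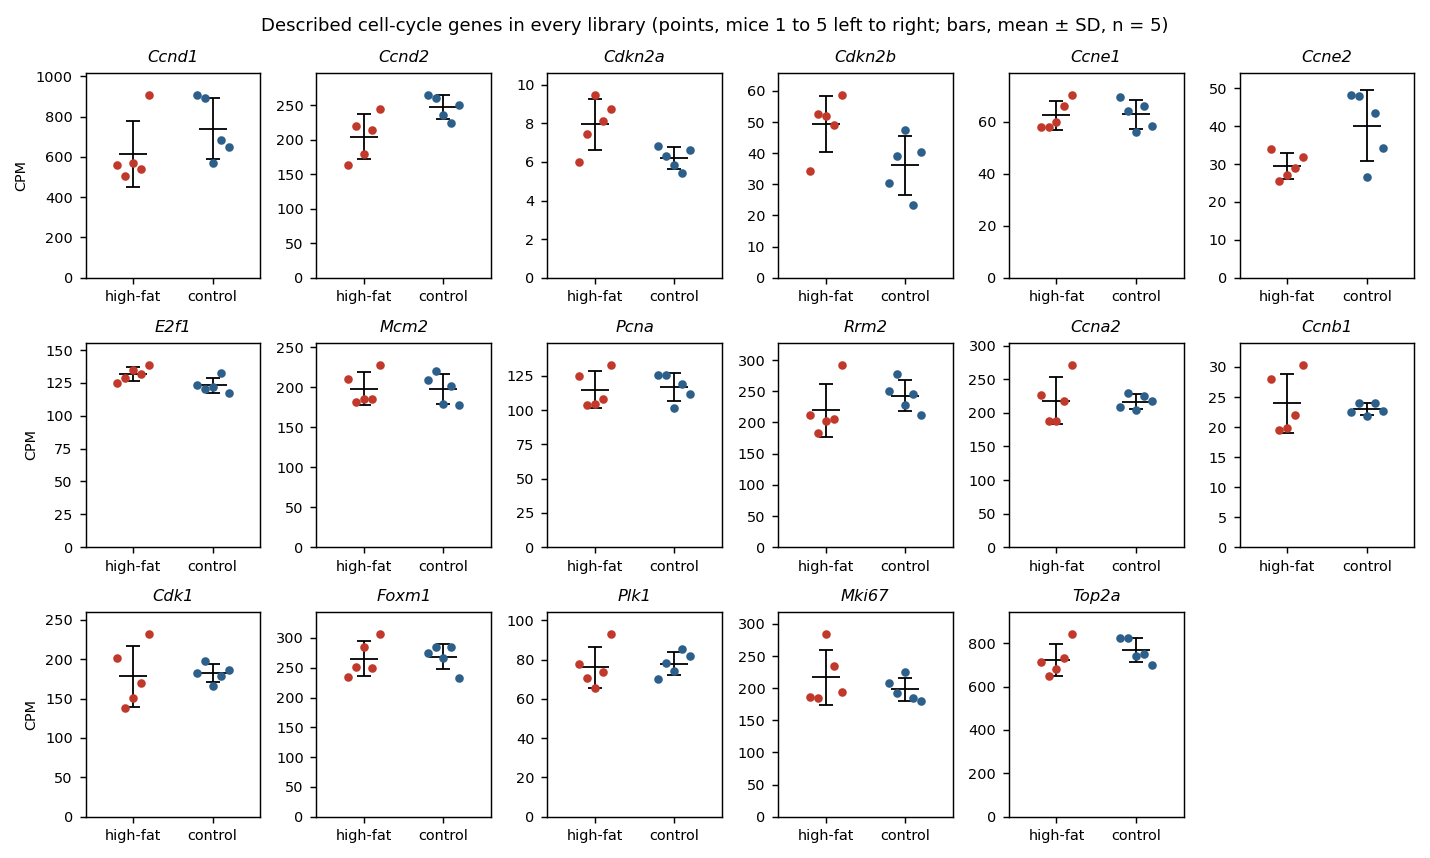
CPM of 17 described cell-cycle genes in each of the 5 high-fat (red, left) and 5 control (blue, right) libraries, with the mean ± SD. The diets overlap in every panel, and for most replication and mitosis genes high-fat mouse 5, the rightmost red point, is the highest value.

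Cyclin E with CDK2 carries cells over the G1/S border, and is encoded by Ccne1 and Ccne2. Ccne2 had 34.1, 25.6, 27.0, 29.0 and 31.7 CPM in high-fat mice 1 to 5, against 48.2, 48.1, 26.6, 43.6 and 34.3 CPM in control mice 1 to 5. Control mice 1, 2 and 4 lay well above every high-fat mouse, control mouse 5 just above the highest, and control mouse 3 within the high-fat range. Ccne2 thus had a log2 change of -0.45 (SE 0.15), a ratio of 0.734, with an unadjusted p of 0.0125 and an adjusted p of 0.267 with edgeR, the lowest among the 49. With library size, which differed between the diets, as a covariate the change was -0.33 with an adjusted p of 0.917, and without control mice 3 and 4 it was -0.56 with an adjusted p of 0.0534. Over all alternatives it lay between -0.63 and -0.33, with adjusted p-values between 0.0534 and 0.917. Exons of Ccne2 overlap those of Ints8 on the opposite strand.

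Ccne1 had 58.1, 57.8, 59.8, 66.1 and 70.2 CPM in high-fat mice 1 to 5, against 69.7, 64.0, 56.0, 66.1 and 58.5 CPM in control mice 1 to 5. The ranges nearly coincided, and the log2 change was -0.01 (SE 0.08). The difference between the changes of Ccne2 and Ccne1 was not tested. Per kilobase of exon Ccne1 was the more abundant, at 23.4 ± 2.06 CPM in high-fat and 23.6 ± 2.09 CPM in control libraries, against 8.43 ± 0.984 and 11.5 ± 2.70 CPM for Ccne2, high-fat and control in that order.

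E2f1, an activating E2F factor, had 125, 129, 135, 132 and 139 CPM in high-fat mice 1 to 5, against 124, 120.1, 122, 133 and 117 CPM in control mice 1 to 5. All 5 high-fat values lay above 4 of the 5 control values, and control mouse 4 lay among the high-fat mice. E2f1 had a log2 change of 0.10 (SE 0.06, adjusted p = 0.559 with edgeR). E2f2 averaged 16.4 ± 2.15 CPM in high-fat and 15.4 ± 2.72 CPM in control libraries. Cdk2 averaged 74.9 ± 4.51 CPM in high-fat and 71.8 ± 6.82 CPM in control libraries. Cdc25a, the phosphatase that activates CDK2, averaged 80.0 ± 10.9 CPM in high-fat and 83.4 ± 7.78 CPM in control libraries. The log2 changes of these 3 genes lay between -0.06 and 0.09, within the spread between mice. Over the 6 genes of the group 3 changes were positive and 3 negative.

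The MCM helicase genes and Pcna differed between diets by less than the spread between mice. Of the 6 helicase subunits and Pcna, 2 changes were positive and 5 negative, all between -0.06 and 0.08 on the log2 scale, and their 95% intervals together ran from a ratio of 0.817 to 1.22. Mcm2 had 211, 182, 185, 185 and 228 CPM in high-fat mice 1 to 5, against 209, 220.4, 179.5, 202 and 178 CPM in control mice 1 to 5. High-fat mouse 5 was highest and control mice 3 and 5 lowest, and the means were 198 ± 20.4 CPM in high-fat and 198 ± 18.6 CPM in control libraries.

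The largest helicase change was that of Mcm6, at 277 ± 36.2 CPM in high-fat and 261 ± 18.5 CPM in control libraries (log2 change 0.08, SE 0.09). Mcm3 averaged 196 ± 32.0 and 202 ± 22.9 CPM, Mcm4 158 ± 18.8 and 165 ± 16.2 CPM, Mcm5 150.2 ± 23.9 and 150.3 ± 22.0 CPM and Mcm7 102 ± 15.1 and 105 ± 11.4 CPM, each in high-fat and control libraries in that order. Although the 6 proteins form a ring with equal parts, their levels per kilobase of merged exon differed. They ran from 59.4 ± 7.75 CPM in high-fat and 56.0 ± 3.96 CPM in control libraries for Mcm6 to 23.0 ± 3.41 and 23.7 ± 2.57 CPM for Mcm7, high-fat and control in that order. The length merges all annotated exons of a gene and can exceed that of its transcripts, so these differences also depend on the annotation. Of the 50-base windows of the Mcm7 transcript 26.0% occur in transcripts of other genes, and its exons overlap Cops6 and Ap4m1 on the opposite strand, so that its level is less certain.

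Pcna, the sliding clamp, had 125, 104, 105, 108 and 133 CPM in high-fat mice 1 to 5, against 126, 125, 102, 119 and 112 CPM in control mice 1 to 5. High-fat mice 1 and 5 stood near or above control mice 1 and 2, and the other high-fat mice near control mouse 3. The log2 change was -0.02 (SE 0.09), and 31.8% of Pcna's windows are shared with other transcripts.

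In deoxynucleotide supply, Rrm2, the regulated subunit of ribonucleotide reductase, had 212, 183, 202, 206 and 293 CPM in high-fat mice 1 to 5, against 249.9, 278, 229, 246 and 212 CPM in control mice 1 to 5. High-fat mouse 5 exceeded every other mouse, and the other 4 high-fat mice lay at or below 212 CPM, close to the lowest control value. Rrm2 had a log2 change of -0.15 (SE 0.12, adjusted p = 0.695 with edgeR), and -0.27 (adjusted p = 0.204) without high-fat mouse 5. It was -0.08 (adjusted p = 0.868) without high-fat mouse 2, -0.09 (adjusted p = 0.900) without control mouse 2, and -0.04 (adjusted p = 0.994) with library size as a covariate. Rrm1, the large subunit, averaged 202 ± 28.6 CPM in high-fat and 205 ± 10.7 CPM in control libraries. Tyms, thymidylate synthase, averaged 24.2 ± 3.93 CPM in high-fat and 24.9 ± 2.88 CPM in control libraries. Tk1, thymidine kinase, averaged 61.0 ± 7.87 CPM in high-fat and 55.1 ± 5.08 CPM in control libraries, the only positive change of the 4 (0.15 on the log2 scale, SE 0.09, adjusted p = 0.588 with edgeR).

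Means of the mitotic entry genes differed between diets by less than their SDs, except for Cdc25c, whose mean difference exceeded the control SD and not the high-fat SD. Of 8 genes, 4 changes were positive and 4 negative, with a median of -0.00499 on the log2 scale, and the 95% intervals together ran from a ratio of 0.805 to 1.29. Ccnb1, cyclin B1, had 28.0, 19.5, 19.9, 22.1 and 30.4 CPM in high-fat mice 1 to 5, against 22.5, 24.0, 21.9, 24.1 and 22.6 CPM in control mice 1 to 5. The high-fat mice lay to either side of a narrow control range, with mice 1 and 5 above it and mice 2 and 3 below it. Ccnb1 had a log2 change of 0.06 (SE 0.12), and 42.1% of the Ccnb1 windows are shared with other transcripts.

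Cdk1, the kinase that cyclin B activates, had 201, 138, 150.2, 169.8 and 232 CPM in high-fat mice 1 to 5, against 182, 197, 165, 179 and 187 CPM in control mice 1 to 5. The same order held as for Ccnb1, with high-fat mice 1 and 5 above all control mice and mice 2 and 3 below them, and the log2 change was -0.03 (SE 0.12). Ccna2, cyclin A2, had 226, 188, 187, 218 and 272 CPM in high-fat mice 1 to 5, against 208, 229.8, 204, 225 and 218 CPM in control mice 1 to 5. High-fat mouse 5 was again highest and high-fat mice 2 and 3 were lowest, with a log2 change of 0.01 (SE 0.10).

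Foxm1, the transcription factor of the G2 and M program, had 234, 251, 285, 249 and 306 CPM in high-fat mice 1 to 5, against 275, 285, 267, 285 and 233 CPM in control mice 1 to 5, a log2 change of -0.02 (SE 0.09). Its high-fat mice 1, 2 and 4 lay below 4 of the 5 control mice, and its exons overlap Tex52 on the same strand. Plk1, a kinase of mitotic entry and exit, had 77.7, 70.7, 65.6, 73.5 and 93.0 CPM in high-fat mice 1 to 5, against 70.2, 78.1, 74.3, 85.3 and 81.8 CPM in control mice 1 to 5, a log2 change of -0.03 (SE 0.09). Here too high-fat mouse 5 was the highest of the 10. Ccnb2, cyclin B2, averaged 66.4 ± 9.34 CPM in high-fat and 60.2 ± 7.39 CPM in control libraries. Aurka, the centrosomal kinase, averaged 109 ± 22.7 CPM in high-fat and 112 ± 10.4 CPM in control libraries, and Cdc25c, a phosphatase that activates CDK1, averaged 27.2 ± 4.43 CPM in high-fat and 25.0 ± 1.91 CPM in control libraries. None of these 3 changes exceeded 0.14 on the log2 scale.

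Of 13 genes of the chromosomes, kinetochore, spindle and checkpoint, 9 changes were positive and 4 negative, with a median of 0.02 on the log2 scale. Mki67, the Ki-67 protein that coats mitotic chromosomes and is the usual marker of dividing cells, had 186, 185, 284, 234 and 194 CPM in high-fat mice 1 to 5, against 208, 193, 225, 185 and 179.8 CPM in control mice 1 to 5. High-fat mice 3 and 4 were highest and the other 3 high-fat mice lay within the control range. Mki67 had a log2 change of 0.13 (SE 0.12, adjusted p = 0.735 with edgeR), with a 95% interval from -0.13 to 0.39. Without high-fat mouse 3 the change was 0.01 (adjusted p = 0.977), and with library size as a covariate it was -0.03 (adjusted p = 0.995).

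Top2a, the topoisomerase that untangles sister chromatids, had 715, 647, 678, 731 and 841 CPM in high-fat mice 1 to 5, against 821, 824, 742, 750.3 and 698 CPM in control mice 1 to 5. High-fat mice 2 and 3 were lowest and high-fat mouse 5 highest, an order unlike that of Mki67. The log2 change was -0.09 (SE 0.09, adjusted p = 0.765 with edgeR), and leaving out high-fat mouse 2 it was -0.04, leaving out mouse 5 it was -0.14. Cenpa, the centromeric histone, had the largest change of the group, at 80.9 ± 10.5 CPM in high-fat and 71.5 ± 4.01 CPM in control libraries (log2 change 0.18, SE 0.09, unadjusted p = 0.0700, adjusted p = 0.465 with edgeR). Kif20a, a kinesin of cytokinesis, averaged 112 ± 15.8 CPM in high-fat and 101 ± 3.89 CPM in control libraries (log2 change 0.16, SE 0.09).

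For the other members of this group the log2 changes lay between -0.04 and 0.09. Aurkb and Birc5, parts of the chromosomal passenger complex, averaged 105 ± 16.2 and 123 ± 15.0 CPM in high-fat libraries, against 104 ± 5.18 and 115 ± 3.39 CPM in control libraries. The checkpoint genes Bub1, Bub1b and Mad2l1 averaged 128 ± 22.7, 160.4 ± 14.3 and 82.8 ± 9.90 CPM in high-fat libraries, against 129.8 ± 17.4, 153 ± 8.65 and 80.3 ± 5.29 CPM in control libraries. The kinetochore genes Cenpe and Cenpf averaged 94.7 ± 9.78 and 85.5 ± 10.8 CPM in high-fat libraries, against 93.1 ± 5.67 and 84.4 ± 10.02 CPM in control libraries. These means differed by less than their SDs, except for Birc5, whose mean difference exceeded the control SD and not the high-fat SD.

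The spindle genes Kif11 and Tpx2 averaged 152 ± 20.1 and 245 ± 25.9 CPM in high-fat libraries, against 153 ± 12.6 and 252 ± 9.93 CPM in control libraries. Cdc20, the activator of the anaphase-promoting complex, averaged 99.3 ± 16.3 CPM in high-fat and 92.0 ± 5.03 CPM in control libraries (log2 change 0.11, SE 0.10). Ube2c, the ubiquitin-conjugating enzyme of that complex, averaged 157 ± 31.6 CPM in high-fat and 158 ± 17.8 CPM in control libraries (log2 change -0.01, SE 0.13).

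The rest of the pathway was read from lists of 118 other cell-cycle genes. Of these edgeR called 0, DESeq2 0 and limma-voom 0, where they called 9, 326 and 5 genes of the whole table, in that order. At an unadjusted p under 0.05 in edgeR 1 was higher and 2 lower, against 5.45% higher and 6.62% lower among all genes. Among 18 other G1/S regulators the median log2 change was 0.00184. Tfdp2, a partner of E2F factors, had 28.4, 32.7, 28.8, 31.0 and 33.7 CPM in high-fat mice 1 to 5, against 42.1, 40.5, 33.8, 35.5 and 38.3 CPM in control mice 1 to 5. It was the 1 gene of the 118 whose diets did not overlap, against 2.18% of all genes, with a log2 change of -0.30 (SE 0.08, unadjusted p = 0.00303, adjusted p = 0.193 with edgeR).

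Cdkn1a, which encodes the CDK inhibitor p21, had 73.2, 45.2, 45.7, 56.7 and 75.2 CPM in high-fat mice 1 to 5, against 93.8, 97.9, 55.5, 78.3 and 101 CPM in control mice 1 to 5. Only control mouse 3 lay within the high-fat range. The log2 change was -0.53 (SE 0.19, unadjusted p = 0.0168, adjusted p = 0.289 with edgeR), and with the macrophage marker level as a covariate it was -0.92 with an adjusted p of 0.0478. Over the other alternatives for Cdkn1a it lay between -0.72 and -0.44, with adjusted p-values between 0.0534 and 0.909. The sign was thus opposite to that of the inhibitors Cdkn2a and Cdkn2b. The macrophage setting called 256 genes of the whole table, and Cdkn1a was the 1 called from these lists. Macrophage marker sums were mostly higher in control libraries, so that covariate is partly confounded with diet. Cdkn1c, which encodes p57, was near the limit of detection, between 0.239 and 1.34 CPM in high-fat and between 0.875 and 1.43 CPM in control libraries.

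Among 42 other replication genes the median log2 change was -0.04, with 16 changes positive and 26 negative, and none had an unadjusted p under 0.05. The smallest p-values belonged to Rpa3, a subunit of the single-strand binding protein, at 14.4 ± 2.42 CPM in high-fat and 12.4 ± 1.10 CPM in control libraries, to Rfc1 of the clamp loader, at 103 ± 8.09 and 111 ± 8.60 CPM, and to Prim2 of the primase, at 26.2 ± 3.22 and 23.8 ± 2.15 CPM, high-fat and control in that order. Among 58 other mitotic genes the median was 0.02, with 33 positive and 25 negative. Cdca3, a trigger of mitotic entry, averaged 103 ± 5.55 CPM in high-fat and 91.6 ± 8.25 CPM in control libraries (log2 change 0.17, unadjusted p = 0.0384, adjusted p = 0.377 with edgeR). Cit, a kinase of cytokinesis, averaged 111 ± 28.2 CPM in high-fat and 95.3 ± 9.90 CPM in control libraries, and Sgo1, a protector of centromeric cohesion, averaged 30.1 ± 5.24 and 34.1 ± 4.95 CPM, high-fat and control in that order.

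The mean level of the replication and mitosis genes varied more from mouse to mouse than between diets, and most widely among the high-fat mice. High-fat mouse 5 had the highest level for 33 of the 49 genes, 67.3%, whereas it was highest for 17.7% of all genes tested. High-fat mouse 2 had the lowest level for 22 of the 49, 44.9%, against 9.10% of all genes. Averaged over the 34 replication and mitosis genes, the deviation from the mean of the 10 libraries was 0.07, -0.20, -0.10, 0.01 and 0.25 log2 CPM in high-fat mice 1 to 5, and 0.02, 0.07, -0.09, 0.02 and -0.04 log2 CPM in control mice 1 to 5. The SD of this average was 0.17 among high-fat mice and 0.06 among control mice, while the diets differed by 0.01.

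All 34 replication and mitosis genes had a larger SD of log2 CPM among the high-fat than among the control mice, as did 58.9% of all genes tested. Without high-fat mouse 5 this held for 25 of the 34, against 48.5% of all genes, and without any other single library for between 31 and 34. No test was made of this difference in spread. Most of the 34 genes vary together over the same 10 libraries, so their count is not one of independent observations. Counted in the same way, 41 of all 49 members had the larger SD among high-fat mice, these 34 included. The spread of list means is another measure, in which genes that do not vary together partly cancel. The mean deviation of the D cyclins and the Rb gate had an SD of 0.08 log2 CPM among high-fat and 0.11 among control mice. That of the cyclin E, CDK2 and E2F genes had 0.09 and 0.14, high-fat and control in that order. In the same order it was 0.18 and 0.14 for the MCM genes and Pcna, and 0.22 and 0.07 for mitotic entry. The median r between G1 and G1/S members was 0.03. The mean deviation of the 18 other G1/S regulators had an SD of 0.11 among high-fat and 0.04 among control mice. High-fat mouse 5 was highest at 0.15 and high-fat mouse 2 lowest at -0.14 log2 CPM.

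**Figure D3:**
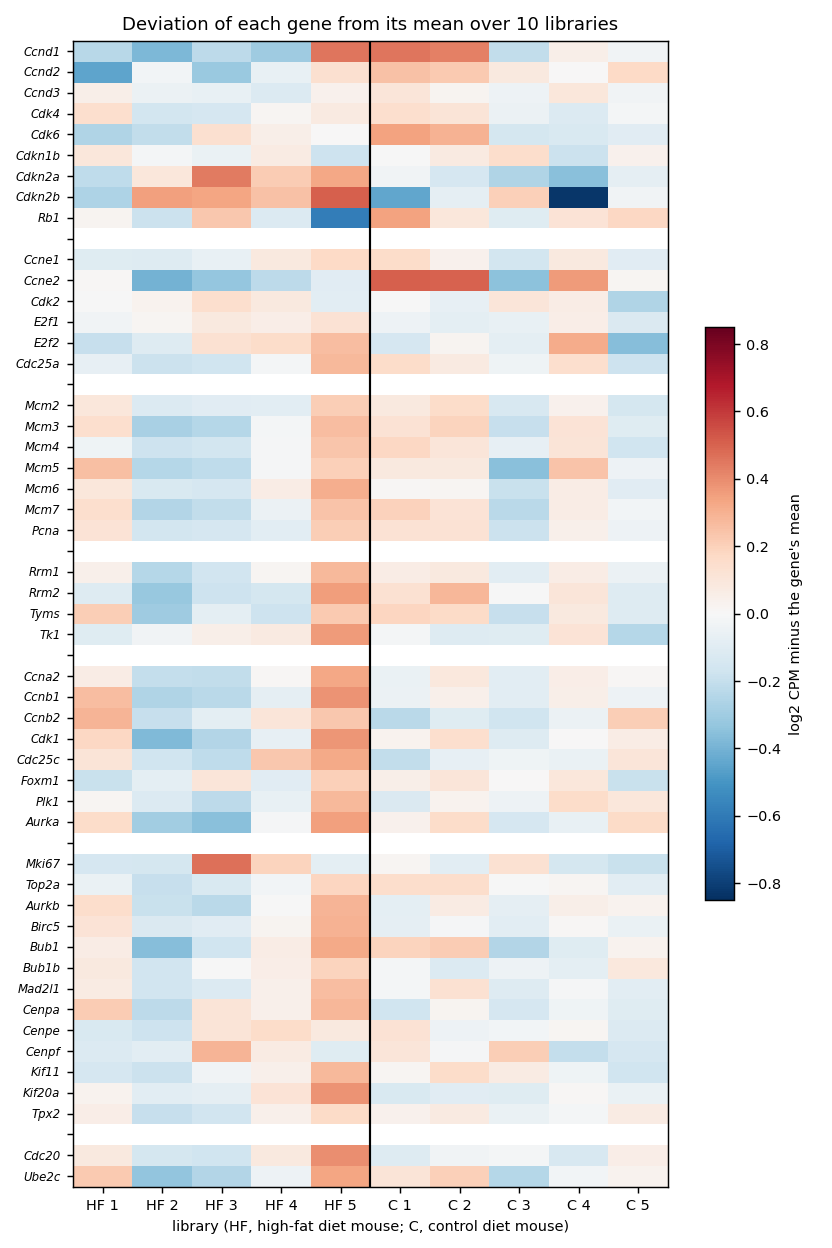
Deviation of each of the 49 genes from its own mean over 10 libraries (log2 CPM; columns, high-fat mice 1 to 5 and then control mice 1 to 5; rows grouped by role). From the MCM genes down, the column of high-fat mouse 5 is mostly above 0 and that of high-fat mouse 2 mostly below 0, while Mki67 and Cenpf peak in high-fat mouse 3.

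Other measures moved with parts of this pattern. The summed fibroblast-type markers were 8759, 12544, 8722, 10683 and 6352 CPM in high-fat mice 1 to 5, and 8636, 7026, 12006, 11272 and 9809 CPM in control mice 1 to 5. Thus the mouse with the highest sum, high-fat mouse 2, had the lowest replication and mitosis level, and the mouse with the lowest sum, high-fat mouse 5, had the highest. All 7 of these markers passed the filter. The T and NK cell markers, 4 of 11 passing the filter, summed to 2.20, 13.0, 13.5, 5.80 and 2.33 CPM in high-fat mice 1 to 5. Among high-fat mice they were thus highest in mice 2 and 3 and lowest in mice 1 and 5. In control mice 1 to 5 they summed to 3.38, 1.01, 10.4, 21.1 and 0.911 CPM. The highest and lowest of these sums, in control mice 4 and 5, did not go with the lowest and highest replication and mitosis level. Pan-leukocyte markers, all 8 passing, summed to 21.6, 65.4, 58.2, 43.8 and 53.5 CPM in high-fat mice 1 to 5. Among high-fat mice they were again highest in mice 2 and 3 but lowest in mouse 1. In control mice 1 to 5 they summed to 69.4, 29.9, 174, 194 and 39.7 CPM, highest in control mice 3 and 4 and lowest in control mouse 2. The part of these markers in the result was not tested. Among high-fat mice the macrophage markers were also highest in mouse 2 but did not otherwise follow the order. Their sums in high-fat mice 1 to 5 were 29.1, 69.1, 39.1, 44.7 and 49.6 CPM, all 12 markers passing the filter.

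Exon length moved with the libraries as well. Across 14329 genes, the rank correlation between a gene's exon length and its deviation in a library was -0.34, 0.10, 0.23, -0.01 and -0.26 in high-fat mice 1 to 5, and 0.10, 0.02, 0.14, 0.09 and -0.10 in control mice 1 to 5. Genes are not independent replicates, and the values describe the libraries. Across the 49 members alone the correlation was -0.31, 0.03, 0.30, -0.06 and -0.41 in high-fat mice 1 to 5, and 0.30, 0.13, 0.31, 0.03 and -0.38 in control mice 1 to 5. Across the members it was thus as far from 0 in some control as in some high-fat libraries. Across all genes the values farthest from 0 were those of high-fat mice 1, 5 and 3. The all-gene value was negative in high-fat mice 1, 4 and 5, whose mean replication and mitosis deviation was above 0. It was positive in high-fat mice 2 and 3, whose deviation was below 0. Among control mice the signs were opposite only in mouse 3. Mki67 and Cenpf, which peaked in high-fat mouse 3, have 10061 and 15433 exon bases. The part of length in the results was not tested.

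**Figure D4:**
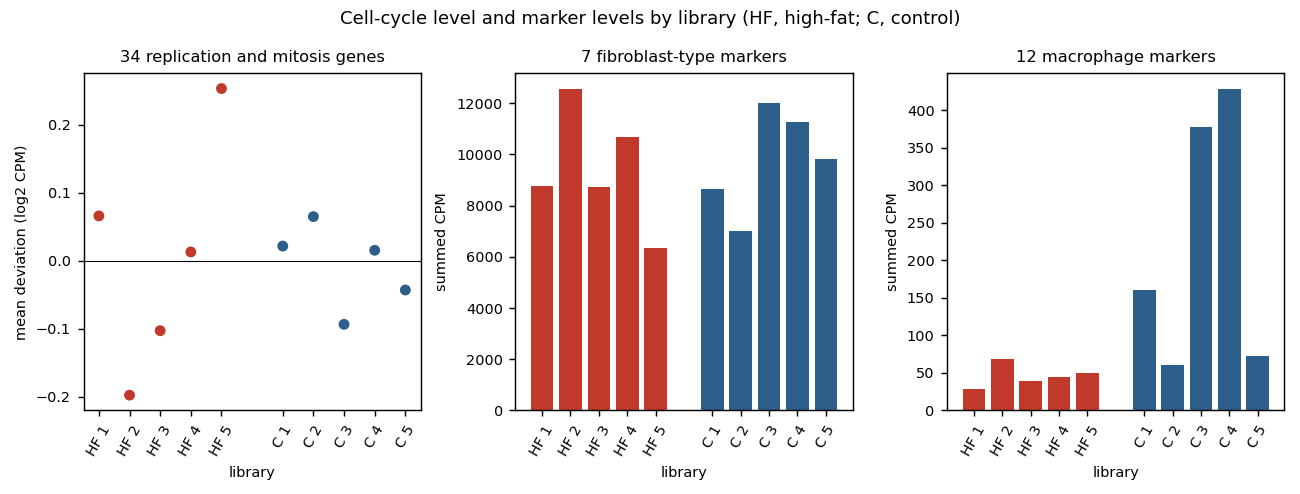
Mean deviation of the 34 replication and mitosis genes (left, log2 CPM), and summed CPM of the fibroblast-type (middle) and macrophage (right) markers, in each library, high-fat mice in red left of control mice in blue. The high-fat mice span -0.20 to 0.25 in the left panel against -0.09 to 0.07 for control mice, and macrophage sums reach 428 CPM in control mouse 4.

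Members were also compared with each other over the 10 libraries, in 6 pairs tested by permutation with 100000 resamples and adjusted over the 6. Ccnb1 and Cdk1, the parts of 1 kinase, varied together (r = 0.94, rho = 0.93, permutation p = 4.0e-05 for r and 4.6e-04 for rho, adjusted p = 2.4e-04 and 0.00276). The relation held without high-fat mice 1 and 5, the libraries farthest from the median (r = 0.93, adjusted permutation p = 0.0169), and with diet means removed (r = 0.96). The helicase genes Mcm2 and Mcm5 also moved together (r = 0.78, rho = 0.79, permutation p = 0.00816 and 0.00878, adjusted p = 0.0245 and 0.0263). Without control mouse 2 and high-fat mouse 5 their r was 0.82 and the adjusted permutation p 0.0554.

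Mki67 was not related to the other markers of division in a way that passed the test. With Top2a its r was -0.16 and rho 0.16 (permutation p = 0.672 and 0.658, adjusted p = 0.672 and 0.912), and r was 0.39 without high-fat mice 3 and 4. With Mcm2 its r was -0.33 and rho 0.12 (permutation p = 0.361 and 0.760, adjusted p = 0.541 and 0.912). Ccne1 with E2f1 gave r = 0.45 and rho = 0.45 (permutation p = 0.190 and 0.193, adjusted p = 0.380 and 0.387). Ccnd1 with Mki67 gave r = -0.27 and rho = 0.01 (permutation p = 0.473 and 0.994, adjusted p = 0.567 and 0.994). Without the libraries farthest from the median of the gene named before the other, r was -0.05 for Mki67 with Mcm2, 0.41 for Ccne1 with E2f1 and -0.31 for Ccnd1 with Mki67, none passing the test.

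Over all pairs of members, described without a test since they share the same 10 libraries, the median r was 0.83 over 55 pairs of replication genes and 0.62 over 253 pairs of mitotic genes. Between replication and mitotic genes it was 0.62 over 253 pairs, and over 105 pairs of G1 and G1/S genes it was 0.03. Rrm1 lay closest to the mean of the other replication and mitosis genes (r = 0.98 over 10 libraries), followed by Mad2l1 (0.96) and Ccna2 (0.95). Of the 34, only Mki67 (-0.30) and Cenpf (-0.37) had a negative r with that mean.

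**Figure D5:**
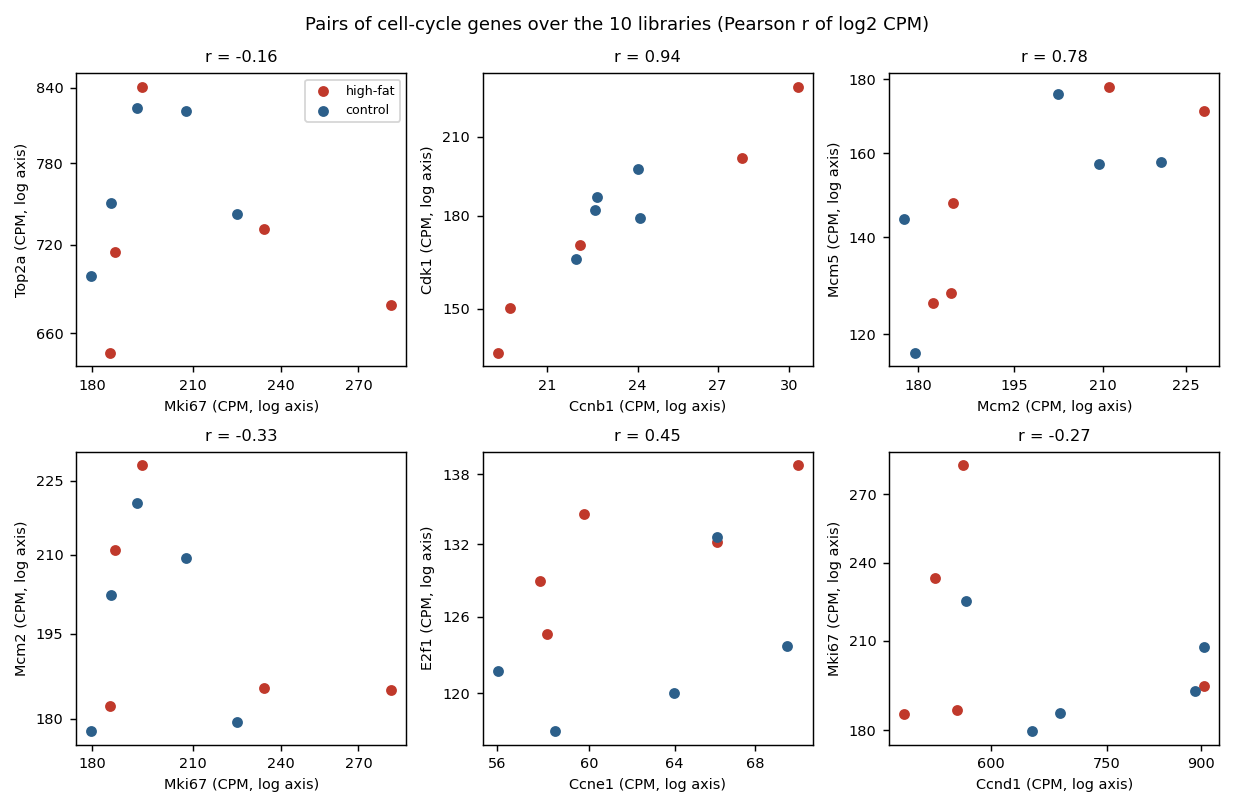
Each panel plots a pair of cell-cycle genes in CPM on log axes over the 10 libraries, high-fat mice in red and control mice in blue, with Pearson r of log2 CPM above. Ccnb1 and Cdk1 lie along a line (r = 0.94), as do Mcm2 and Mcm5 more loosely (r = 0.78), and the panels with Mki67 show no line.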

How the data were processed

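The deposited values are whole-number read counts for each gene in 10 libraries of polyadenylated RNA, made with RNeasy and NEBNext Ultra RNA kits, per the labels' protocols. Tools listed without a role in the submitters' processing notes are DESeq2 1.24.0, BWA 0.7.12, FastQC 0.11.5 and cutadapt 1.15, and the builds listed are mm10 and GRCm38. How reads were counted, on which strand and with which annotation is not given in the sources used here, so shared and overlapping genes are uncertain. Exons of 13 members overlap a coding gene on the opposite strand: Ccnd1, Ccne2 and Mcm7 as described, and Ccnd3, Cdk4, Rb1, Cdk2, Tk1, Ccna2, Cdc25c, Kif20a, Cdc20 and Ube2c. Cdc20 also shares 11.35% of its windows with other transcripts. Limits from counts of 0 cover counting error only.

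Symbols, coordinates and merged exon lengths came from GENCODE M21 (53274 of 53379 identifiers matched without the version suffix). The diet test used edgeR 4.0.16 (R 4.3.3) with these settings (TMM, filterByExpr, robust quasi-likelihood fit with diet as the only term, two-sided, Benjamini-Hochberg adjustment, threshold 0.05), and the code was tested on simulated data. Log2 CPM used a prior count of 2. Correlations and their permutations were computed with numpy. DESeq2 1.42.0, limma-voom (limma 3.58.1), other scaling, no filter, covariates and left-out libraries were alternatives, and the counts of genes with the wider spread were examined only after seeing the data. The labels give no batch, and nothing but the mouse numbers separates replicates. No libraries agreed within sampling noise (smallest chi-square per degree of freedom 7.67), and all 10 were kept.

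The members and gene lists were chosen with earlier results of these data known. Described library by library were 4 members with an unadjusted p under 0.05 and 14 chosen by name, with Cdkn2a in both, 17 in all. Of the other lists, the genes passing the test, or else the 3 with the smallest p, were named.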

Additional observations from a re-analysis of the deposited data

Results flagged for a closer look

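In 48 groups of 5 libraries, formed by the described genes and the mean levels of the 7 lists in each diet, the gap between the outermost library and its nearest neighbor was compared with the range of the group (Dixon's criterion, critical ratio 0.71). Chance alone marks about 1 in 20 such groups, and 2 of the 48 were marked, no more than that share. The groups share libraries and are not independent. Ccnd1, cyclin D1, stood at 906 CPM in high-fat mouse 5, against 567 CPM in the next high-fat mouse, a ratio of 0.848 of gap to range. Rrm2, of ribonucleotide reductase, stood at 293 CPM in the same mouse, against 212 CPM in the next high-fat mouse, a ratio of 0.736. High-fat mouse 5 is also the library with the highest level for 33 of the 49 members.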

How the results depend on the processing

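No member was called under any of the 18 alternatives run on the test, and no member had groups that did not overlap under DESeq2's size factors. The number of genes called in the whole table was 9 in the test as reported and 9 with DESeq2's size factors, but 53 with no filter, 326 with DESeq2, 5 with limma-voom, 0 with library size as a covariate, 256 with the macrophage level as a covariate, 276 without control mice 3 and 4 together, and between 1 and 27 leaving out single libraries. With the macrophage level, 1 of the other cell-cycle genes was called, Cdkn1a. The labels do not pair the mice, and the names of the deposited count columns number the high-fat mice on from the control mice. Deviations of same-numbered mice correlated between -0.36 and 0.33, which cannot show whether mice were paired. With the mouse numbers used here as a replicate block 16 genes and no member were called. Members at an unadjusted p under 0.05 numbered between 0 and 3 with a positive and between 1 and 4 with a negative change over these alternatives. Medians of the 7 member lists lay between -0.14 and 0.11 on the log2 scale over all alternatives.

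Of the 17 described members, 8 kept the sign of their change under every alternative run and the other 9 did not. With limma-voom Ccna2 was at -0.0031, with the replicate block at -0.0030. With library size as a covariate the changes were 0.0456 for Ccne1, 0.0249 for Pcna, 0.0288 for Cdk1, 0.0489 for Foxm1, 0.108 for Plk1 and -0.0322 for Mki67. With the macrophage level they were -0.0548 for Mcm2, -0.0481 for Ccna2, -0.0074 for Ccnb1 and 0.0512 for Foxm1, and without control mice 3 and 4 together -0.0309 for Mcm2, -0.0032 for Ccna2 and 0.0045 for Foxm1. Leaving out single libraries, the ranges were -0.079 to 0.063 for Ccna2, -0.0393 to 0.127 for Ccnb1, -0.0533 to 0.028 for Ccne1, -0.141 to 0.0532 for Cdk1, -0.074 to 0.0277 for Foxm1, -0.0491 to 0.045 for Mcm2, 0.014 to 0.189 for Mki67, -0.0792 to 0.0167 for Pcna and -0.115 to 0.014 for Plk1. The causes were not tested. Without the libraries farthest from the median, r was 0.39 for Mki67 with Top2a, of the opposite sign, and 0.82 for Mcm2 with Mcm5, past the threshold no longer. With TTTGAA alone as the CHR element, 2 G1 and G1/S promoters and 1 replication promoter held it. The count of replication and mitosis genes with the wider spread on the high-fat diet, an alternative chosen after seeing the data, lay between 25 and 34 leaving out single libraries. With 5 mice per diet, changes of the sizes inside the 95% intervals are not excluded. Before adjustment the intervals of Cdkn2b, Cdkn2a, Ccne2 and Ccnd2 leave out 0, and after adjustment no member passed the threshold.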
